A study of Mus musculus with 6 samples.

Results

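The cytosolic heat shock proteins were followed here in C2C12 cells, a mouse myoblast line, after transfection with an siRNA against Cox7a2l or with a random control siRNA. The group comprised 10 genes chosen by symbol: Hspa8, Hspa1a, Hspa1b, Hsp90aa1, Hsp90ab1, Hsph1, Dnajb1, Hspb1, Hspb8 and Cryab. Each matched 1 of the 52740 gene rows, and all 10 were among the 15022 rows that passed the expression filter. The 2 groups were siCOX7A2L (3 libraries) and siCTRL (3 libraries), both in the same line kept in medium with 10% fetal bovine serum. The Cox7a2l protein helps respiratory complexes III and IV to form supercomplexes in the inner membrane of mitochondria, and the study's title places the comparison in myoblast differentiation. Libraries were strand-marked and made from total RNA depleted of ribosomal RNA. The labels give neither the time after transfection nor whether the 3 libraries of a group are separate cultures, so p-values measure the spread between these libraries, which may be technical.

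Heat shock proteins are molecular chaperones that hold, refold or pass on unfolded proteins. Hsp70 proteins (here Hspa8, Hspa1a and Hspa1b) bind short exposed stretches of a client in a cycle driven by ATP, J-domain proteins such as Dnajb1 start that cycle, and Hsp110 proteins such as Hsph1 exchange the nucleotide. Hsp90 proteins (Hsp90aa1 and Hsp90ab1) act late in the folding of kinases and receptors, and small heat shock proteins (Hspb1, Hspb8 and Cryab) hold unfolded clients without ATP. Under stress, trimers of the heat shock factor Hsf1 bind alternating GAA and TTC units, the heat shock element, before many of these genes. In muscle, Cryab and Hspb8 are known for guarding the Z-disc and its filaments, and Hspb8 works there with the co-chaperone Bag3.

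The promoters are shown because Hsf1 binds before many of these genes under stress. They also let those of the near-identical genes Hspa1a and Hspa1b be compared. RefSeq promoters (GRCm38.p6, another build than the mm39 of the files) were found for 6 of the 10 genes; Hspa8, Hsp90aa1, Hsp90ab1 and Cryab had no entry. The 4 genes with element letters before the start are printed, together with Dnajb1, the gene of lowest p below; Hspb8, with none before the start, is not. Each line gives the 250 bases before the most upstream listed start, 5′ to 3′ on the strand of the gene, with capitals marking GAANNTTC or TTCNNGAA.
Hspa1a (chr17:34972157-34972406, minus strand): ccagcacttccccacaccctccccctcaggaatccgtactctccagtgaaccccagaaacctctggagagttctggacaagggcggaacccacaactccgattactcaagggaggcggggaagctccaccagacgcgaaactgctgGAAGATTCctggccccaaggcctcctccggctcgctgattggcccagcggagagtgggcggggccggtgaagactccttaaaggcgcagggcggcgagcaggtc
Hspa1b (chr17:34959239-34959488, minus strand): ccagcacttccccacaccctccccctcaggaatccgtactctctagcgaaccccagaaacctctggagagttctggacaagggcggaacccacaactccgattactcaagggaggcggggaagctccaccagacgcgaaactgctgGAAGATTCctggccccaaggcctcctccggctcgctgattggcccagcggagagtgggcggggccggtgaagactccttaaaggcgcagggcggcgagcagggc
Hsph1 (chr5:149636337-149636586, minus strand): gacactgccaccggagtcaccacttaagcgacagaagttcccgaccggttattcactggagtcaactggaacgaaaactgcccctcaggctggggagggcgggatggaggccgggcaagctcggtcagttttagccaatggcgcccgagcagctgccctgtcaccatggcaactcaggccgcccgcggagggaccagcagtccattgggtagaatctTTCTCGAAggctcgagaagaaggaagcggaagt
Dnajb1 (chr8:83607925-83608174, plus strand): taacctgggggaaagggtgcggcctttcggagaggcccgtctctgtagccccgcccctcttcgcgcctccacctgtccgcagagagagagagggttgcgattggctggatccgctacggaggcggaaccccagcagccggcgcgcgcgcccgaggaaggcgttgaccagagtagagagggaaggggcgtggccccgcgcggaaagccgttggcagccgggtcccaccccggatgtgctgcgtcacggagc
Hspb1 (chr5:135887669-135887918, plus strand): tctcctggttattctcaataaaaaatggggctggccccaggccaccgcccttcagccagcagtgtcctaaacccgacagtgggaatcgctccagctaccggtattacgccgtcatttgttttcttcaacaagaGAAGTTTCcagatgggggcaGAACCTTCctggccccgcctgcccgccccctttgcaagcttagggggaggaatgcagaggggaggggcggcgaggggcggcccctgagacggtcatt

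Letters of the 2-unit element, GAANNTTC or TTCNNGAA, stood in the promoters of 5 of the 6 genes (Hspa1a, Hspa1b, Hsph1, Hspb1 and Hspb8). The window searched ran from 250 bases before to 50 bases after the start, on both strands, and 17.0% of all 27025 genes in the table had such letters in the window of at least 1 listed start. In Hspb8 they lay after the start, at bases 3 to 10. Dnajb1 had none in its window. The 3-unit form, GAANNTTCNNGAA or its reverse complement, which contains both 2-unit forms, was found in 1 of the 6, Hsph1 (as TTCTGGAAAGTTC, bases 37 to 49 after the first start), against 0.662% of all genes. The Hspa1a and Hspa1b promoters differed at 3 of the 250 printed bases, C44T, T47C and T249G, counted from the first printed base with the Hspa1a base first. These matches describe letters in a window and no binding was measured.

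The siRNA target was low in each treated library. Cox7a2l had 6.72, 5.90 and 3.59 CPM (counts scaled to library size with TMM factors) in siCOX7A2L replicates 1, 2 and 3, against 58.0, 59.5 and 58.9 CPM in siCTRL replicates 1, 2 and 3 (log2 fold change -3.44 ± 0.19 standard error, SE, edgeR adjusted p = 1.9e-05). Library totals ran from 9890218 to 17077826 estimated counts, and siCOX7A2L replicate 3 was the smallest. Replicate 3 of both groups stood apart on the first principal component of log2 CPM, which held 61.2% of the variance. The 6 myoblast markers, Myod1 and Des among them, were above 1 CPM in each library. The summed level of 15 genes of differentiating myotubes was 43.9, 18.5 and 507.6 CPM in siCOX7A2L replicates 1, 2 and 3, against 19.7, 18.9 and 195 CPM in siCTRL. Markers of other cells were low: 4 adipocyte, 4 endothelial and 4 leukocyte genes summed to at most 3.19 CPM per list in any library, and 3 neuronal genes to at most 3.02 CPM. The 5 fibroblast genes summed to 24.9, 25.6 and 56.9 CPM in siCOX7A2L and 16.8, 18.4 and 23.7 CPM in siCTRL. The myotube sum was thus not higher in siCOX7A2L in pair 2. Of 12 tested myotube genes, 9 had fitted log2 fold changes above 0 and 3 below. Tnnt1, Actc1 and Acta1 were called higher (edgeR adjusted p = 0.0023, 0.026 and 0.041), each higher in all 3 pairs. Most of the fibroblast difference lay in Dcn, with 9.89, 3.65 and 45.1 CPM in siCOX7A2L and 1.85, 2.48 and 11.7 CPM in siCTRL (edgeR adjusted p = 0.0419). Pdgfra had 14.7, 21.6 and 10.2 CPM in siCOX7A2L and 14.4, 14.9 and 11.4 CPM in siCTRL. Thy1 was too low to pass the expression filter, at 0.317, 0.351 and 0.112 CPM in siCOX7A2L and 0.528, 0.688 and 0.290 CPM in siCTRL. Whether these differences in myotube or fibroblast genes have a part in the values below was not tested. In bulk libraries fewer cells of a type and less RNA per cell cannot be told apart.

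None of the 10 heat shock genes passed the adjusted threshold of 0.05 after Cox7a2l siRNA, while 0.726% of all tested genes did (109 of 15022, edgeR quasi-likelihood test with replicate number as block, Benjamini-Hochberg adjustment). DESeq2 with the same block called 1 of the 10 (Dnajb1, lower), with 493 of 26739 gene rows called. Without the replicate 3 pair edgeR called 0 of the 10 and 51 of 15053 tested genes. At an unadjusted p under 0.05 in the edgeR fit there were 3 genes, each lower in siCOX7A2L: Dnajb1, Hsp90aa1 and Hsph1. Their number was 2, 1 and 1 without pair 1, 2 and 3. Over all tested genes 8.97% were lower at that level and 8.74% were higher. The same 3 genes had all siCOX7A2L libraries below all siCTRL libraries in CPM, as 7.62% of tested genes did. Fitted log2 fold changes were below 0 for 9 of the 10 genes, against 48.9% of all tested genes. Their median was -0.15, against 0.01 over all tested genes, and the medians within pairs 1, 2 and 3 were -0.11, -0.10 and -0.36. The number below 0 was 7 without pair 1 and 8 without pair 2 or pair 3, and 8 without the block; the median was -0.25 without pair 1. The genes are not independent of each other, so these counts are a description.

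**Figure D1:**
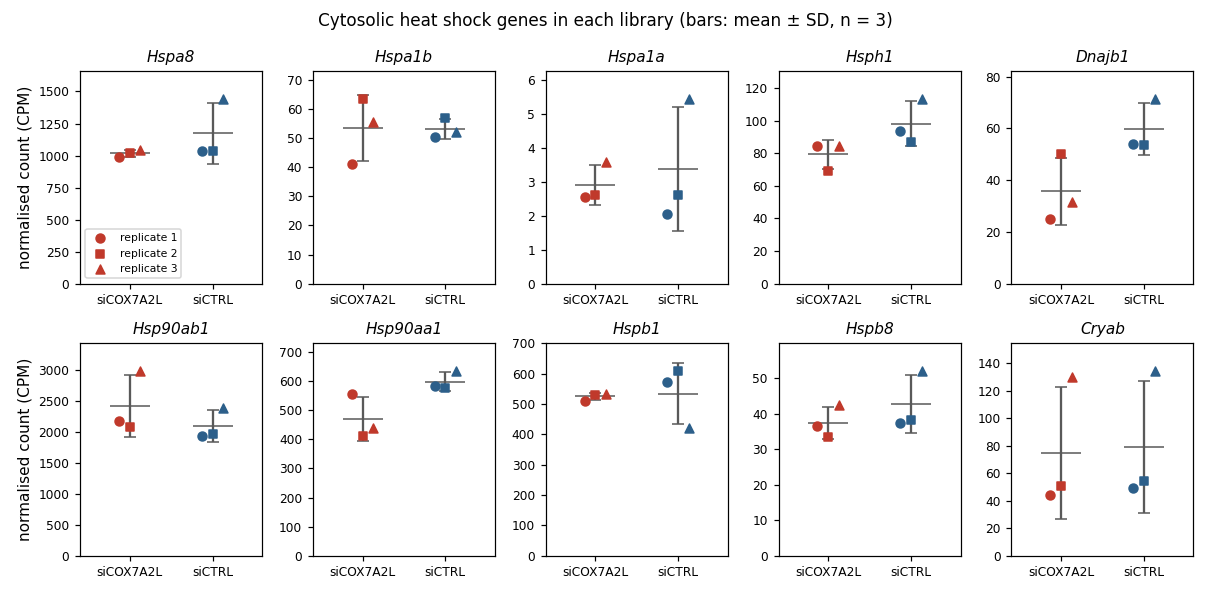
Normalised counts (CPM, y axis from 0, 1 panel per gene) in the 3 siCOX7A2L and 3 siCTRL libraries, with points shaped by replicate number and bars giving the mean ± SD (n = 3). Dnajb1, Hsp90aa1 and Hsph1 have all siCOX7A2L points below all siCTRL points, and Cryab is high in replicate 3 of both groups.

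The gene of lowest p was Dnajb1, the J-domain partner of Hsp70. It had 25.1, 50.0 and 31.7 CPM in siCOX7A2L replicates 1, 2 and 3, against 54.1, 53.7 and 71.5 CPM in siCTRL. The groups did not overlap, but siCOX7A2L replicate 2 lay close to the lower siCTRL libraries, and the pairs differed by -1.11, -0.10 and -1.17 on the log2 scale. The mean was 35.6 ± 12.9 CPM in siCOX7A2L and 59.8 ± 10.2 CPM in siCTRL (SD, n = 3 each). The fitted level was 0.578 times that of siCTRL (log2 fold change -0.79 ± 0.21 SE, edgeR unadjusted p = 0.0037, adjusted p = 0.101). Dnajb1 was the 1 heat shock gene whose call depended on the setting. It passed with the block when pair 2 was left out (log2 fold change -1.15, edgeR adjusted p = 1.5e-06). It also passed without an expression filter (edgeR adjusted p = 2.7e-05) and in DESeq2 with the block (DESeq2 adjusted p = 0.0122). These settings called more genes of any kind: 1210 of 15384 without pair 2, 1257 of 26739 without a filter and 493 of 26739 in DESeq2. The main fit called 109 of 15022. Dnajb1 differed least in pair 2. Over all 18 settings its log2 fold change lay between -1.15 and -0.55 and its adjusted p between 1.5e-06 and 1.00. In the authors' deposited DESeq2 table Dnajb1 had a log2 fold change of -0.74 and an adjusted p of 0.0428. It was the 1 gene of the 10 marked as lower there, with none marked as higher. Over all genes of that table, 808 of the 12742 with an adjusted p were under 0.05.

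Hsph1, the Hsp110 exchange factor, had 84.6, 69.1 and 84.7 CPM in siCOX7A2L replicates 1, 2 and 3, against 93.9, 86.9 and 113.7 CPM in siCTRL. The treated libraries lay below all control libraries, by a small margin between the nearest of them. The fitted level was 0.811 times that of siCTRL (log2 fold change -0.30 ± 0.12 SE, edgeR unadjusted p = 0.033, adjusted p = 0.237). It was lower in each of the 3 pairs, by log2 values between -0.15 and -0.42.

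The 2 cytosolic Hsp90 genes had fold changes of opposite sign, neither past the threshold. Hsp90aa1, the form that stress induces, had 554, 412 and 439 CPM in siCOX7A2L replicates 1, 2 and 3, against 583, 576 and 636 CPM in siCTRL. The groups did not overlap (0.778 times the level of siCTRL, log2 fold change -0.36 ± 0.13 SE, edgeR unadjusted p = 0.018, adjusted p = 0.183). Hsp90ab1, the constitutive form, had 2176, 2068 and 2980 CPM in siCOX7A2L, against 1934, 1960 and 2380 CPM in siCTRL. It was higher within each pair, while the groups overlapped because replicate 3 was high in both (log2 fold change 0.19 ± 0.12 SE, edgeR adjusted p = 0.459). Of the counts of both Hsp90 genes, Hsp90aa1 took 20.3%, 16.6% and 12.8% in siCOX7A2L and 23.2%, 22.7% and 21.1% in siCTRL. This share was 16.6% ± 3.73 in siCOX7A2L and 22.3% ± 1.10 in siCTRL (SD, n = 3 each), with p = 0.10 by a two-sided exact permutation test, the smallest that 3 against 3 libraries allow. The test did not use the replicate numbers as pairs. The share is of counts, not per transcript length, and was examined after the values had been seen. In TPM the share was 17.4%, 16.1% and 19.88% in siCOX7A2L replicates 1, 2 and 3, against 20.6%, 19.95% and 24.8% in siCTRL. The groups thus almost met in TPM.

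**Figure D2:**
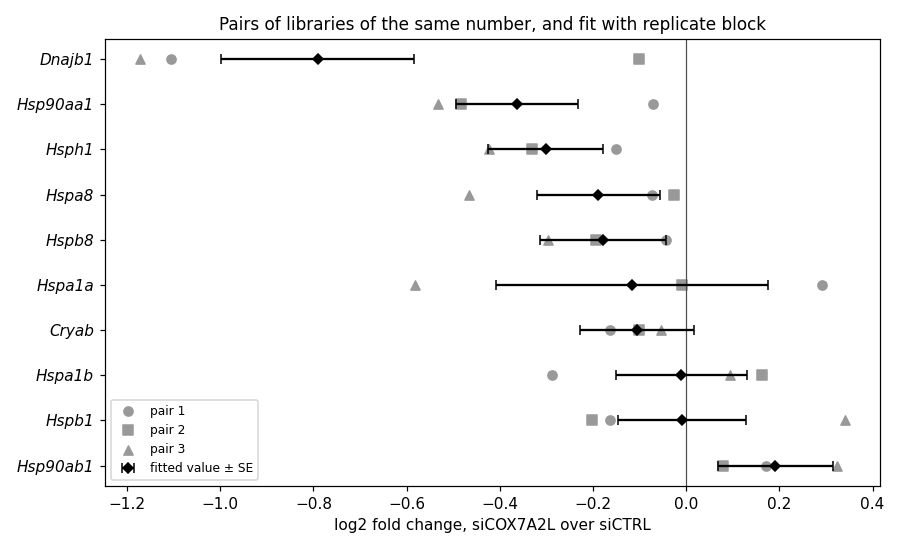
Log2 fold changes of siCOX7A2L over siCTRL (x axis) for each heat shock gene, as 3 pairs of libraries with the same number (grey) and as the fitted value ± standard error (black). Dnajb1 has pairs at -1.11, -0.10 and -1.17, and Hsp90ab1 is the only one of the 10 with a fitted value above 0.

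The Hsp70 genes differed in how much of the group difference came from pair 3. Hspa8, the constitutive Hsc70, had 987, 1016 and 1045 CPM in siCOX7A2L replicates 1, 2 and 3, against 1039, 1034 and 1445 CPM in siCTRL. The treated libraries lay close together, and siCTRL replicate 3 was far above the other 5. Pairs 1 and 2 differed by -0.07 and -0.03 and pair 3 by -0.47 on the log2 scale (fitted log2 fold change -0.19 ± 0.13 SE, edgeR adjusted p = 0.491).

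The stress-induced Hsp70 gene Hspa1b had 41.3, 63.7 and 55.7 CPM in siCOX7A2L replicates 1, 2 and 3, against 50.5, 56.9 and 52.2 CPM in siCTRL. The groups overlapped and the fitted log2 fold change was -0.01 ± 0.14 SE (edgeR adjusted p = 0.982). Its neighbour Hspa1a was near the low end of the measured range, at 2.54, 2.60 and 3.59 CPM in siCOX7A2L and 2.05, 2.61 and 5.45 CPM in siCTRL (log2 fold change -0.12 ± 0.29 SE, edgeR adjusted p = 0.874). Hspa1a and Hspa1b encode nearly the same protein. Of the 31-base words in the Hspa1a transcript of GENCODE M21, 63.8% also occur in Hspa1b, and 67.6% of those of Hspa1b occur in Hspa1a. The split between them is therefore uncertain. Added to 1 row they had 43.9, 66.3 and 59.3 CPM in siCOX7A2L and 52.5, 59.5 and 57.6 CPM in siCTRL, again with overlapping groups.

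Sequence shared with other genes also touched more abundant members. In the transcripts of Hspb1, 52.3% of 31-base words occur in the pseudogene Hsp25-ps1. The same was true of 46.7% of the words of Hsp90aa1 in Gm12346 and of 38.6% of those of Hspa8 in Gm15459. Their levels can include reads from these copies or lose reads to them. Hsph1, Hspb8 and Cryab shared 0 words with other genes, and Dnajb1 shared 0.412%.

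Among the small heat shock genes the groups overlapped in CPM in all 3. Hspb1, the mouse Hsp25, had 511, 529 and 533 CPM in siCOX7A2L replicates 1, 2 and 3, against 572, 609 and 421 CPM in siCTRL. Pairs 1 and 2 were lower in siCOX7A2L and pair 3 was higher, because siCTRL replicate 3 was the lowest library (log2 fold change -0.01 ± 0.14 SE, edgeR adjusted p = 0.984). The sign of so small a value also turned in 4 of the alternative settings.

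Hspb8 had 36.4, 33.5 and 42.3 CPM in siCOX7A2L replicates 1, 2 and 3, against 37.5, 38.3 and 52.1 CPM in siCTRL. It was lower within each pair and did not pass (log2 fold change -0.18 ± 0.14 SE, edgeR adjusted p = 0.540). Cryab, alpha-B crystallin, had 44.0, 50.3 and 129 CPM in siCOX7A2L, against 49.2, 54.0 and 134 CPM in siCTRL. Its libraries sorted by replicate number and not by siRNA (log2 fold change -0.11 ± 0.12 SE, edgeR adjusted p = 0.702).

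The replicate number separated some heat shock genes more than the siRNA did. Cryab in replicate 3 was 2.75 times the mean of replicates 1 and 2 in siCOX7A2L and 2.60 times in siCTRL. Hspb8 was 1.21 and 1.37 times, and Hsp90ab1 1.40 and 1.22 times, in siCOX7A2L and siCTRL. Hspa8 differed between the groups here, with 1.04 times in siCOX7A2L and 1.39 times in siCTRL, and Hspb1 had 1.03 and 0.713 times. Over all tested genes the median log2 difference of replicate 3 was -0.02 in siCOX7A2L and -0.01 in siCTRL, and the central 90% of genes in siCTRL lay between -1.12 and 1.23. The value of Cryab in siCTRL, 1.38, was thus outside that range, and that of Hspa1a, 1.19, inside it. Bag3, the partner of Hspb8 named here after its values were seen, was also high in replicate 3, at 51.6, 61.9 and 159 CPM in siCOX7A2L replicates 1, 2 and 3 and 56.2, 62.6 and 126 CPM in siCTRL. These are 1 library against 2 in each group, with no test. Myog, a factor of early muscle differentiation, moved with them, at 9.57, 1.33 and 159 CPM in siCOX7A2L and 2.90, 3.78 and 61.1 CPM in siCTRL. Its part in the replicate 3 values was not tested.

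**Figure D3:**
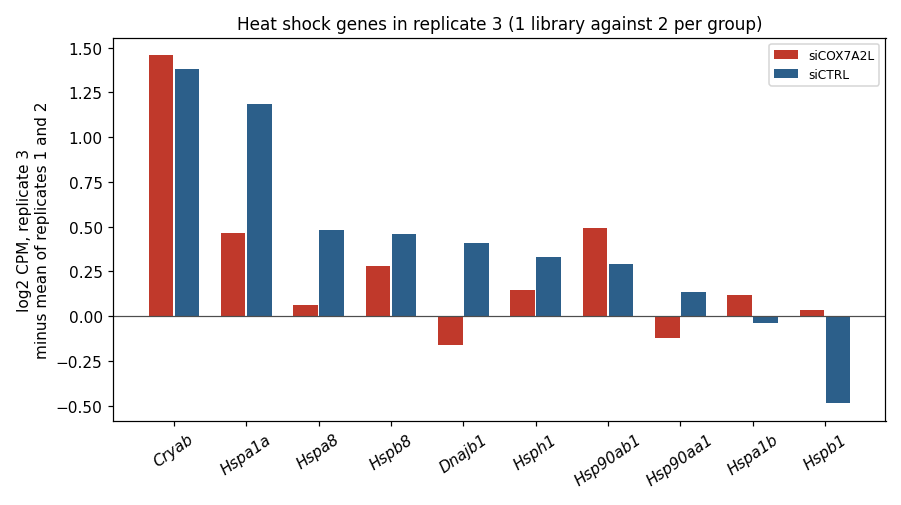
Log2 CPM of replicate 3 minus the mean of replicates 1 and 2 (y axis) for each heat shock gene, in siCOX7A2L (red) and siCTRL (blue). Cryab stands at 1.46 in siCOX7A2L and 1.38 in siCTRL, while Hspb1 is at 0.04 and -0.49.

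Levels between genes were compared per transcript length, in TPM, which divides each count by transcript length and scales each library to the same sum. In siCOX7A2L, Hsp90ab1 was highest at 847 ± 167 TPM, followed by Hspb1 at 505 ± 96.8, Hspa8 at 482 ± 96.3, Hsp90aa1 at 187 ± 61.8 and Cryab at 68.6 ± 29.7 TPM (SD, n = 3). In siCTRL, Hsp90ab1 had 842 ± 133, Hspa8 698 ± 152, Hspb1 609 ± 103, Hsp90aa1 239 ± 76.6 and Cryab 97.8 ± 64.1 TPM (SD, n = 3). Hspa8 and Hspb1 differed by less than their spread in both groups, and the wide spread of Cryab came from replicate 3.

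The other genes had lower levels. Hsph1 had 26.4 ± 11.4 TPM in siCOX7A2L and 33.9 ± 12.5 TPM in siCTRL, and Hspb8 15.7 ± 2.12 and 21.8 ± 4.92 TPM (SD, n = 3 each). Hspa1b had 14.1 ± 3.57 TPM in siCOX7A2L and 16.9 ± 1.01 TPM in siCTRL, and Dnajb1 8.86 ± 3.88 and 17.8 ± 3.52 TPM (SD, n = 3 each). These neighbours were not separated by more than their spread in siCTRL. Hspa1a was lowest, and mean Hspa1b was 19.9 times it in siCOX7A2L and 16.7 times in siCTRL. The constitutive Hspa8 had 34.2 times the mean TPM of the inducible Hspa1b in siCOX7A2L and 41.4 times in siCTRL. One gene row without a symbol took 44.2% to 53.6% of all TPM in siCOX7A2L libraries and 36.9% to 42.5% in siCTRL, which lowers the TPM of the other genes most in siCOX7A2L replicate 3.

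In 2 genes, Hsp90aa1 and Hsph1, the counts per TPM, relative to the median gene, were clearly lower in replicate 3 of both groups. The ratio of estimated counts to TPM, set to 1 at the median gene of each library, follows the transcript length that the authors' quantification assigned to a gene. For Hsp90aa1 it was 1.22, 1.09 and 0.447 in siCOX7A2L replicates 1, 2 and 3, and 1.12, 1.14 and 0.777 in siCTRL. For Hsph1 it was 1.44, 1.39 and 0.559 in siCOX7A2L, and 1.22, 1.36 and 0.946 in siCTRL. In both genes the replicate 3 libraries were the lowest of their group, and siCOX7A2L replicate 3 was the lowest of all 6. The quotient of replicate 3 over the mean of replicates 1 and 2 in siCOX7A2L was 0.387 for Hsp90aa1 and 0.396 for Hsph1. Of 10822 genes with at least 40 counts in each library, 0.333% had a smaller quotient than Hsp90aa1 and 0.351% a smaller one than Hsph1. In siCTRL the quotients were less extreme, at 0.685 for Hsp90aa1 and 0.735 for Hsph1, with 3.78% and 5.62% of genes below them. In the other heat shock genes this quotient lay between 0.968 and 1.06 in both groups, except for Hsp90ab1 in siCOX7A2L, at 0.730. The comparison of the groups above rests on the estimated counts, not on TPM, and its fit held no term for transcript length. In TPM the groups overlapped in both genes. Hsp90aa1 had 173, 134 and 255 TPM in siCOX7A2L replicates 1, 2 and 3, against 197, 192 and 327 TPM in siCTRL. Hsph1 had 22.4, 17.5 and 39.3 TPM in siCOX7A2L, against 29.3, 24.5 and 48.1 TPM in siCTRL. Within each pair both genes had a lower TPM in siCOX7A2L. The row without a symbol took more of the TPM in siCOX7A2L in each pair, 53.6% against 36.9% in pair 3. That lowers the TPM of all other genes, so raw TPM cannot show whether these 2 were lower relative to them. In limma on log2(TPM + 0.5) with the block, log2 fold changes were -0.36 for Hsp90aa1 and -0.38 for Hsph1. The median over all tested genes was -0.21 there. Whether the assigned length has a part in the lower counts of Hsp90aa1 and Hsph1 was not tested. Hspa8 and Hspb8 went the other way, with groups that overlapped in CPM but not in TPM. Hspa8 had 554, 518 and 373 TPM in siCOX7A2L replicates 1, 2 and 3, against 609, 613 and 874 TPM in siCTRL. Hspb8 had 18.0, 15.3 and 13.9 TPM in siCOX7A2L, against 18.7, 19.2 and 27.5 TPM in siCTRL. The row without a symbol bears on these TPM too.

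**Figure D4:**
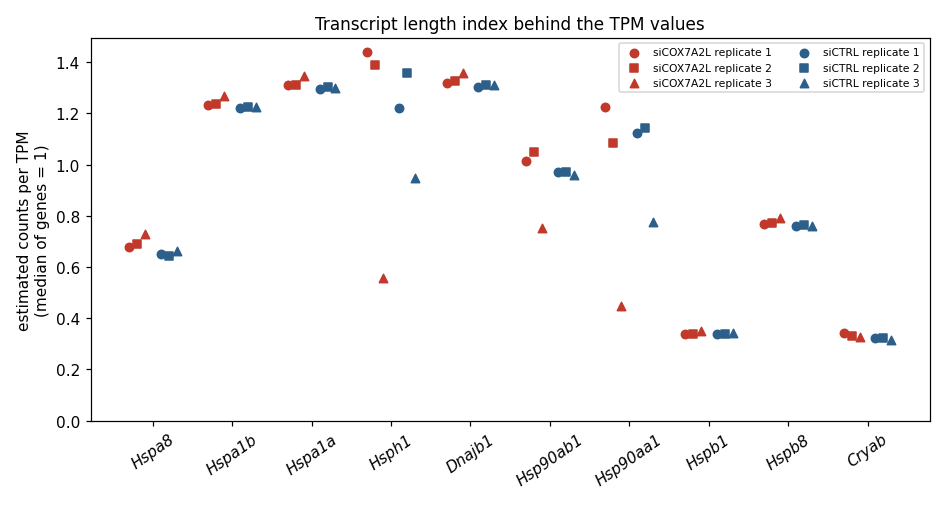
Estimated counts per TPM, relative to the median gene of each library (y axis), for each heat shock gene in siCOX7A2L (red) and siCTRL (blue), with points shaped by replicate number. Hsp90aa1 and Hsph1 are low in replicate 3, at 0.447 and 0.559 in siCOX7A2L, while Dnajb1, Hspb1 and Hspa1b hardly move.

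The genes that regulate or work with these chaperones gave no call in edgeR with the block. In DESeq2 with the block 1 of these partner genes was called, Dnajb5 (higher), with 493 of 26739 gene rows called. In limma on log2(TPM + 0.5) 0 of them were called, with 4 of 15022 tested genes called. At an unadjusted p under 0.05 in edgeR, 5 of the 67 tested (7.46%) were higher, against 8.74% of all tested genes, namely Dnajb5, Dnajb6, Hspb2, Hspb6 and Pfdn1. At the same level 4 of the 67 (5.97%) were lower, against 8.97% of all tested genes, namely Hspa14, Hspa4l, Dnajc9 and Fkbp5. These genes are named after their values were seen. Of 5 tested genes of heat shock factors and their binding protein 0 passed (median 0.24). Hsf1 had a log2 fold change of 0.09 ± 0.12 SE (edgeR adjusted p = 0.764), and Hsbp1, whose protein binds Hsf1, had 0.24 ± 0.14 SE (edgeR adjusted p = 0.387). Of 7 tested genes of other Hsp70 and Hsp110 proteins 0 passed, 6 had values below 0, against 48.9% of all tested genes, and the median was -0.34. The most abundant of them, Hspa4 and Hspa4l of the Hsp110 family, had log2 fold changes of -0.11 and -0.35 (edgeR adjusted p = 0.664 and 0.206). Of 12 other J-domain genes 0 passed (median 0.01). Dnaja2 and Dnajc5, the pair of highest level, had 0.20 and 0.02. Dnajb5 had 0.94 ± 0.20 SE (edgeR adjusted p = 0.0576).

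The partners that handle clients were likewise not called. Of 12 tested Hsp90 cochaperones 0 passed (median -0.07), and Fkbp4, an immunophilin, and Stip1, which links Hsp70 to Hsp90, had log2 fold changes of -0.02 and -0.13. Fkbp5 had -0.69 ± 0.28 SE (edgeR adjusted p = 0.260). Of 8 genes of nucleotide exchange and BAG proteins 0 passed (median 0.04), with Bag6 at 0.14 and St13 at 0.19. Of 14 subunits of the chaperonin TRiC and of prefoldin 0 passed (median -0.12), with Cct2 at -0.23 and Cct5 at -0.05. Of 2 tested genes of other small heat shock proteins, Hspb2 had 0.86 ± 0.27 SE and Hspb6 0.40 ± 0.17 SE (edgeR adjusted p = 0.134 and 0.253), both higher in all 3 pairs. Of 7 chaperones of mitochondria and endoplasmic reticulum 0 passed (median -0.03), with Serpinh1 at -0.06 and Hsp90b1 at -0.23.

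**Figure D5:**
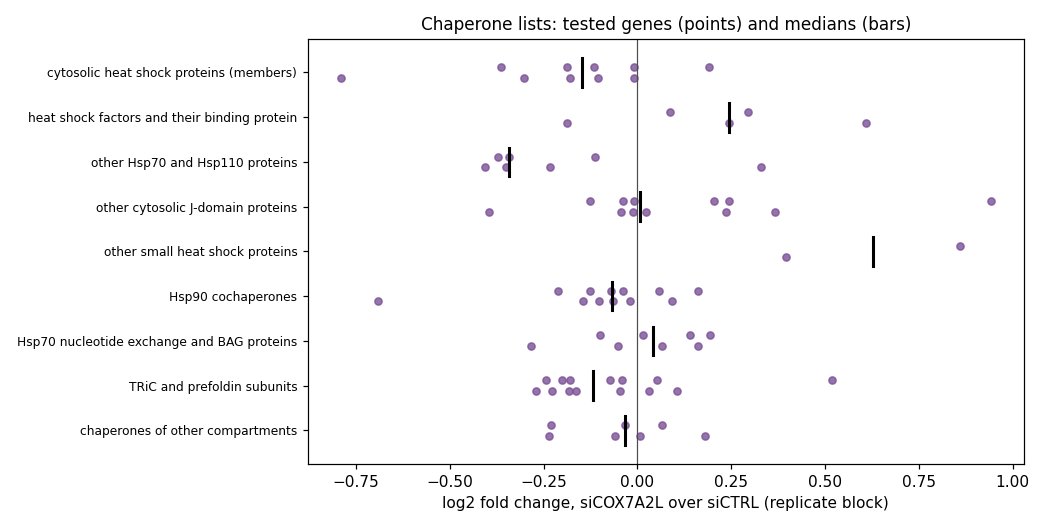
Fitted log2 fold changes of siCOX7A2L over siCTRL (x axis) for the tested genes of each chaperone list (points), with the list's median as a bar. The cytosolic heat shock proteins have a median of -0.15 and the other Hsp70 and Hsp110 proteins one of -0.34, and none of the points passed the adjusted threshold in edgeR with the block.

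Genes with the most similar pattern over the 6 libraries were found by Pearson correlation of log2 CPM among genes of at least 10 CPM. The nearest to Cryab was Ranbp1 and the nearest to Hsp90ab1 was Capzb, with 1038 and 915 genes above a correlation of 0.9. The nearest to Dnajb1 was Nr1d1 and the nearest to Hspa8 was Dmtf1, with 161 and 223 genes above that level. With 6 libraries in 2 clusters such likeness is a description of these libraries.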

How the data were processed

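RNA-seq libraries from 6 C2C12 samples were analysed. Per the submitters' processing notes, the tools were DESeq2 1.30.1, Salmon 0.13.1 and Trim Galore 0.6.4, with build mm39. Their roles and the annotation release were not given in the sources used here. Estimated counts per gene and TPM were deposited by the authors, with a result table holding scaled counts (a normalised signal), log2 fold changes, a Wald score and p-values per the file headers. Counts were rounded (design foresaw whole counts) and tested in edgeR 4.0.16 (R 4.3.3): TMM, default filter by group, robust quasi-likelihood fit with replicate number as block, Benjamini-Hochberg adjustment at 0.05. Log2 values of pairs used a prior count of 2. The standard error is the log2 fold change over the root of F. DESeq2 1.42.0 and limma 3.58.1 on log2(TPM + 0.5), or + 0.1, were alternatives. The fit was tested on simulated counts with 200 changed genes. These counts held no difference between replicates, so that test cannot show how the fit handles replicate 3.

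Libraries of the same number, a label that both groups carry, deviated together (correlations 0.53, 0.45 and 0.67 across genes, against at most 0.44 across numbers), so the number was treated as a pairing. Pairing is clear only for replicate 3, and no label says what a number shares. Symbols came from GENCODE M21 by gene identifier without version (97.6% of rows). Members and gene lists were chosen with earlier results of these data known. Named were Cox7a2l, the members, called genes or the 2 most abundant of each list, Myod1, Myog and Myh3, and the most similar gene of each member, not all of them in the text.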

Additional observations from a re-analysis of the deposited data

How the results depend on the processing

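Without the replicate block, siCOX7A2L against siCTRL gave 2 called genes and 0 heat shock genes; 1 library left out of that fit gave 0 to 2 genes. Counts of calls with the block were 197 with a term for replicate 3 in its place, 58 by library size alone, 1257 with no filter, 493 in DESeq2, and 4 and 3 by limma on TPM with 0.5 and 0.1 added; without pair 1, 2 or 3 they were 373, 1210 and 51. Heat shock genes called numbered 1 (Dnajb1) with no filter, in DESeq2 and without pair 2, and 0 in the others. The members' median log2 fold change moved to -0.37 on TPM with either pseudocount, where the median of all genes was -0.21 and -0.24. Without the block it moved to -0.30, -0.31 and -0.30 when siCOX7A2L replicate 3, siCTRL replicate 1 or siCTRL replicate 2 was left out, and was -0.15, -0.15 and -0.03 without siCOX7A2L replicate 1 or 2 or siCTRL replicate 3. It lay between -0.25 and -0.13 with 1 pair left out. Of 172 values of single members, 155 kept their sign and side of the threshold, 3 passed anew (Dnajb1) and 14 changed sign, none of them past the threshold. Hspa1b turned to 0.0097 without the block and to 0.0086 with the term for replicate 3, to 0.13 without pair 1, and to 0.16 and 0.061 without the block when siCOX7A2L replicate 1 or siCTRL replicate 2 was left out. Hspb1 turned to 0.066 and 0.079 without pair 1 or 2, and to 0.024 and 0.078 without the block and siCTRL replicate 1 or 2. Hspa1a turned to 0.14 without pair 3 and to 0.31 without the block and siCTRL replicate 3. Cryab turned to 0.18, 0.11 and 0.53 without the block and siCOX7A2L replicate 1, siCOX7A2L replicate 2 or siCTRL replicate 3. The cause of these changes was not tested. The Hsp90aa1 share differed by -5.73 percentage points in CPM and -3.97 in TPM, an alternative chosen after seeing the data. Depth limits Hspa1a, which had 30.6 to 94.0 estimated counts per library.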
